A study of Mus musculus with 15 samples.

Results

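Mammary tumors carrying any floxed Ctnnb1 allele were compared with wild-type tumors on the ErbB2KI background, in which the oncogene Erbb2 drives mammary cancer in mice. The 10 tumors whose genotype label was Ctnnb1 fl/wt (HET, 5 tumors) or Ctnnb1 fl/fl (HOM, 5 tumors) were pooled as floxed and set against the 5 tumors labelled Ctnnb1 wt/wt (WT), which together make up all 15 tumors of the series. All groups carried ErbB2KI, and the floxed alleles were meant for deletion in the mammary epithelium only. Tumors were taken at end burden and flash frozen, and total RNA of whole tumor tissue, stroma and infiltrating cells included, was hybridized to Affymetrix whole-transcript arrays. No source used here gives the promoter behind the deletion or the age of the mice. Whether each tumor came from a mouse of its own is not in the labels, so the p-values cover the spread among these tumors only.

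Ctnnb1 encodes beta-catenin, which works in 2 places. At adherens junctions it links cadherins such as E-cadherin, through alpha-catenin, to the actin cytoskeleton. In the nucleus it joins TCF/LEF factors and switches on Wnt target genes, after Wnt signals have stopped the destruction complex of Apc, Axin and Gsk3 from marking it for degradation. Plakoglobin, encoded by Jup, is its closest relative and can take its place at the junction.

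Of 14243 genes tested, none differed between floxed and WT tumors after adjustment (limma, Benjamini-Hochberg, smallest adjusted p = 0.769). The count at an adjusted p under 0.05 with HET and HOM on the same side of WT was thus 0, or 0% of tested genes. At an unadjusted p under 0.05, 237 genes (1.66%) had a higher and 564 (3.96%) a lower floxed mean. Together these are 801 genes, beside 712 that chance gives on average, and in all 801 both floxed genotypes lay on the same side of WT. Genes vary together between tumors, so a chance count can lie far from that average. Among all tested genes the HET and HOM means were both above WT in 4371 (30.7%), both below in 5410 (38%) and on opposite sides in 4462. The 2 floxed genotypes were compared with the same 5 WT tumors, so a shared side is partly set by the same controls. For the 801 genes it is also nearly fixed by the choice of a small pooled p, to which both genotypes contribute.

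The intervals show how large a difference remains possible for most genes. The 95% interval of a floxed minus WT difference reached a median of 0.357 to either side on the log2 scale, and the whole interval lay between -1 and 1 for 11489 genes (80.7%). In simulated data of the same size the test recovered 72 of 100 genes changed by 1 and 91 of 100 changed by 2 on the log2 scale. Both sets of 100 were changed together there, with noise independent between genes. The adjusted threshold is stricter when few genes change, so these shares do not apply to a gene changed alone. The median difference over all tested genes was -0.02. Tumors of a genotype were not alike: the median correlation between 2 tumors over tested genes was 0.937 among WT tumors, 0.863 among HET tumors and 0.939 among HOM tumors.

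The labelled tissue was checked with luminal epithelial markers. Epcam, an epithelial adhesion molecule, lay between 11.67 and 12.16 in WT tumors and between 11.38 and 12.31 in 9 floxed tumors, and was 9.31 in HET 1. Keratin 8 (Krt8), a luminal keratin, lay between 11.64 and 12.60 in all 15 tumors. Averaged over 14 luminal markers, HET 1 had 8.23 and the other floxed tumors between 9.67 and 11.28. HET 1 was also highest in B and plasma cell markers, at 10.06, and HET 3 was highest in skeletal muscle markers, at 11.33. In bulk tissue of this kind, fewer cells of a type and less RNA per cell cannot be told apart.

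Ctnnb1, the targeted gene, had a level of 11.84 ± 0.39 (SD, n = 5) in WT and 11.49 ± 0.26 (n = 10) in floxed tumors. By tumor it was 11.71, 12.09, 12.10, 12.08 and 11.22 in WT 1 to WT 5. In HET 1 to HET 5 it was 11.66, 11.39, 11.22, 11.63 and 11.60, and in HOM 1 to HOM 5 it was 11.58, 11.30, 11.36, 11.15 and 12.01. Thus 4 WT tumors lay above 9 floxed tumors, while WT 5 lay among the floxed tumors and HOM 5 among the WT tumors. Floxed tumors had 78.6% of the WT level, a log2 difference of -0.35 (95% interval -0.70 to -0.00107), which the two-sided exact permutation test over all 3003 assignments did not call (p = 0.0536, and 0.108 adjusted over Ctnnb1, Jup and Erbb2). Without WT 5 the difference was -0.50 (exact permutation p = 0.004), without HOM 5 it was -0.41 (p = 0.0195), and without both it was -0.56 (p = 0.0014). WT 5 and HOM 5 were picked out by their Ctnnb1 level in an earlier analysis of these data, so these p-values are not independent evidence. Leaving out WT 2, WT 3 or WT 4 weakened the difference to -0.29, -0.28 and -0.29 (exact permutation p = 0.135, 0.138 and 0.133). Without any other single tumor the exact permutation p lay between 0.0539 and 0.0864. The position of the array probes relative to the deleted exons was not analysed here.

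For Jup and for E-cadherin, which binds beta-catenin at the junction, the difference lay within the spread between tumors. Jup was 11.81 ± 0.69 in WT and 12.13 ± 1.03 in floxed tumors, a log2 difference of 0.32 (95% interval -0.70 to 1.34, exact permutation p = 0.562, adjusted 0.562). It was 0.19 without WT 2 and 0.61 without WT 5. It lay between 12.79 and 12.98 in HOM 1 to HOM 4, but at 11.17 in HOM 5, and WT 5 at 12.98 was as high as the highest floxed tumors. E-cadherin (Cdh1) was 11.74 ± 0.14 in WT and 11.37 ± 1.08 in floxed tumors. The wide floxed spread came with HET 1 at 8.38, against 11.23 to 12.16 in the other floxed tumors, and the difference of -0.37 was -0.04 without HET 1 (limma adjusted p = 0.863 with it).

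Erbb2, the driver oncogene, had a higher floxed mean. It was 9.63, 11.001, 11.60, 11.47 and 11.85 in WT 1 to WT 5. The HET tumors all lay above every WT tumor, between 12.39 and 12.92, and the HOM tumors spread from 10.52 to 12.83 across the WT range. The pooled log2 difference was 1.004 (95% interval -4.82e-05 to 2.01, exact permutation p = 0.0719, adjusted 0.108), and without WT 1 it was 0.63. The HET and HOM means lay 1.59 and 0.42 above WT, and HOM against HET did not pass (limma adjusted p = 0.587).

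**Figure D1:**
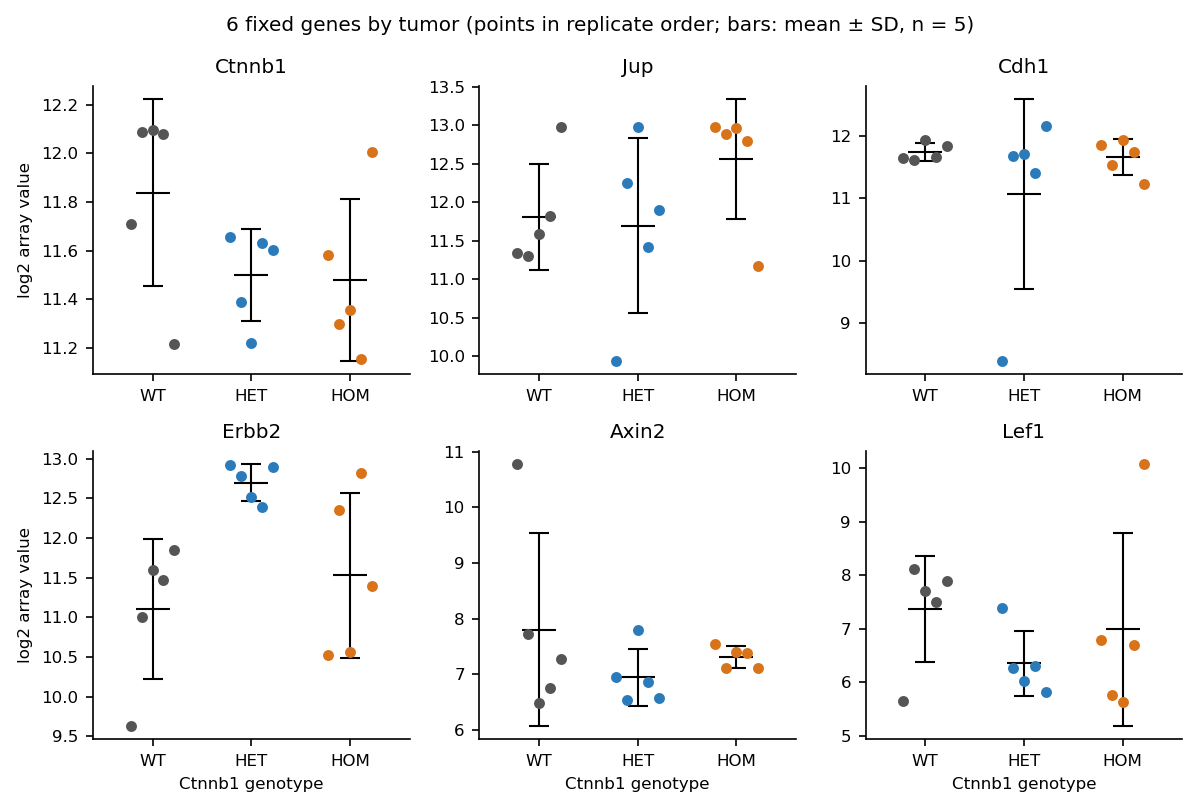
Log2 array values of Ctnnb1, Jup, Cdh1, Erbb2, Axin2 and Lef1 in each tumor by Ctnnb1 genotype, with bars for mean ± SD (n = 5). WT 5 (11.22) and HOM 5 (12.01) lie outside the rest of their groups for Ctnnb1, HET 1 (8.38) for Cdh1 and WT 1 (10.78) for Axin2.

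Complete separation of the 10 floxed from the 5 WT tumors was seen for 4 genes. Dhtkd1, which encodes a mitochondrial enzyme of lysine and tryptophan breakdown, and the uncharacterized genes A530020G20Rik and 6030443J06Rik were lower in every floxed tumor (3 genes, 0.0211% of those tested). Fbxo27, which encodes an F-box protein that binds glycoproteins, lay higher in every floxed tumor (1 gene, 0.00702%). By chance a gene is separated in a given direction with probability 0.000333 (1 of the 3003 assignments of 5 tumors). Both shares, taken as fractions of the tested genes, lie below that. All 5 WT values of Fbxo27 were below their array medians, so it passed the filter on low values through floxed tumors alone. A higher floxed mean was thus nearly fixed in advance. Of the tested genes 35 had no WT tumor above its array median, and all 35 had a higher floxed mean. A530020G20Rik and 6030443J06Rik are named for this separation, after their values were seen. None of the 4 passed the adjusted test of floxed against WT tumors.

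Dhtkd1 was 7.20, 6.96, 6.85, 7.01 and 6.77 in WT 1 to WT 5. It was 6.17, 6.20, 6.69, 6.10 and 6.64 in HET 1 to HET 5 and 6.64, 6.48, 6.45, 6.52 and 5.98 in HOM 1 to HOM 5. The highest floxed tumor, HET 3, lay just below the lowest WT tumor, WT 5. The log2 difference was -0.57 (95% interval -0.85 to -0.30, limma adjusted p = 0.798), a 1.49-fold lower floxed mean, with HET and HOM at -0.60 and -0.55 from WT.

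A530020G20Rik ranged from 6.32 to 7.03 in WT, from 5.16 to 5.91 in HET and from 5.89 to 6.28 in HOM (log2 difference -0.89, limma adjusted p = 0.769). With the genotypes fitted separately it passed in HET against WT (limma adjusted p = 0.0307) and not in HOM against WT (limma adjusted p = 0.999981). For 6030443J06Rik the ranges were 6.08 to 6.28 in WT and 5.45 to 5.89 in floxed tumors (log2 difference -0.41, limma adjusted p = 0.769). Fbxo27 lay between 5.37 and 5.49 in WT and between 5.49 and 6.11 in floxed tumors, with HOM 5 highest (log2 difference 0.31, limma adjusted p = 0.798). The lowest floxed tumor, HOM 3 at 5.4925, and the highest WT tumor, WT 5 at 5.4922, had almost the same value. The array medians were 5.54 to 5.73, so Fbxo27 was measured at a level where signal over background was not known. The number of separated genes was 75 without WT 5, between 5 and 17 without any other single tumor, and 104 without WT 5 and HOM 5. Fewer tumors allow fewer assignments, so chance separates more genes when tumors are left out. After renewed quantile normalization Dhtkd1 and 6030443J06Rik were still separated, while A530020G20Rik and Fbxo27 were not.

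The 12 named genes with the lowest p and a lower mean in both floxed genotypes were Kcnj15, Cdh19, Ivd, Dhtkd1, Stim1, Bcl2l2, Lgr4, Ano10, Trim12c, Rnf128, Adcy9 and Abca2. Their log2 differences ran from -0.37 to -2.59, with limma adjusted p between 0.769 and 0.798, so none is a call. In 10 of the 12 the HET difference was larger than the HOM difference, and the smallest adjusted p for HOM against HET was 0.587.

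Kcnj15, which encodes an inwardly rectifying potassium channel, had the smallest p of all genes. It was 7.79, 7.63, 7.36, 7.67 and 7.93 in WT 1 to WT 5. It was 6.10, 6.32, 6.46, 7.48 and 5.81 in HET 1 to HET 5, and 7.05, 6.78, 6.57, 6.42 and 6.60 in HOM 1 to HOM 5. All floxed tumors but HET 4 lay below every WT tumor. The log2 difference was -1.12 (95% interval -1.58 to -0.66, limma adjusted p = 0.769), with HET at -1.24 and HOM at -0.99.

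Cdh19, a cadherin gene known from Schwann cells and other derivatives of the neural crest, had the largest difference of the 12. It was 7.77, 6.78, 8.32, 8.15 and 7.48 in WT 1 to WT 5. It was 4.07, 4.87, 4.41, 3.81 and 3.74 in HET 1 to HET 5, and 6.75, 6.34, 6.93, 5.30 and 4.91 in HOM 1 to HOM 5. The HET tumors were lowest, the HOM tumors lay between, and HOM 3 alone overlapped the WT range. The log2 difference was -2.59 (95% interval -3.73 to -1.45, limma adjusted p = 0.769). It passed when the 3 genotypes were fitted together and the mean of HET and HOM was set against WT (limma adjusted p = 0.0409), where it was the only gene called. In that fit HET against WT passed (limma adjusted p = 0.00594) and HOM against WT did not (limma adjusted p = 0.999981). HOM against HET did not pass either (limma adjusted p = 0.587). The HET tumors, HOM 4 and HOM 5 lay below the medians of their arrays. The size of the pooled, HET and HOM differences is therefore uncertain.

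Markers of Schwann cells and nerve were only in part lower. Of 11 tested members, which do not include Cdh19, 2 were higher and 6 lower in both floxed genotypes, with a median difference of -0.07. S100b, a calcium-binding protein of glia, was 7.66 ± 1.28 in WT and 5.55 ± 1.25 in floxed tumors (log2 difference -2.10), while the nerve growth factor receptor gene Ngfr was 6.37 ± 0.40 and 6.82 ± 0.27 (0.45). The list mean lay between 7.56 and 8.37 in WT, between 6.98 and 8.004 in HET and between 7.54 and 8.12 in HOM. The list does not measure nerve cells alone, because Sox10 is also listed as a luminal progenitor marker and Erbb3 as an ErbB receptor. Sox10 was 6.92, 8.14 and 7.25 in HET 1, HET 2 and HET 4, and 10.47 to 11.73 in the other tumors. The part of Schwann and nerve cells in the Cdh19 difference was not tested.

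Lgr4, a receptor for R-spondins that strengthens Wnt signalling, was 11.58, 11.47, 11.04, 11.15 and 10.66 in WT 1 to WT 5. Floxed tumors ranged from 9.11 to 10.83 with a median of 10.25, and 9 of 10 lay below every WT tumor (log2 difference -1.09, 95% interval -1.65 to -0.54). Rnf128, a ubiquitin ligase known for restraining T cell activation, ranged from 8.17 to 9.36 in WT and from 6.23 to 8.28 in floxed tumors (median 7.71), with 9 of 10 below every WT tumor. Bcl2l2, an anti-apoptotic relative of Bcl2, had a small but even difference. It ranged from 7.49 to 7.99 in WT and from 7.28 to 7.54 in floxed tumors, with 9 of 10 below every WT tumor and a log2 difference of -0.37 (95% interval -0.56 to -0.19).

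The other named genes with lower floxed means overlapped WT in more tumors. Ivd, the isovaleryl-CoA dehydrogenase of leucine breakdown, ranged from 8.23 to 9.43 in WT and from 7.80 to 8.55 in floxed tumors, and 6 of 10 lay below every WT tumor (log2 difference -0.77). Stim1, the calcium sensor of the endoplasmic reticulum, ranged from 8.02 to 8.56 and from 7.56 to 8.13, with 8 of 10 below. WT 5 was the lowest WT tumor for Ivd and Stim1. The lipid transporter gene Abca2 (log2 difference -0.61), the adenylate cyclase gene Adcy9 (-0.87), the membrane protein gene Ano10 (-0.84) and Trim12c (-0.96) had 7 or 8 floxed tumors below every WT tumor. Trim12c belongs to a cluster of near-identical genes, so its probes may read its neighbours too.

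**Figure D2:**
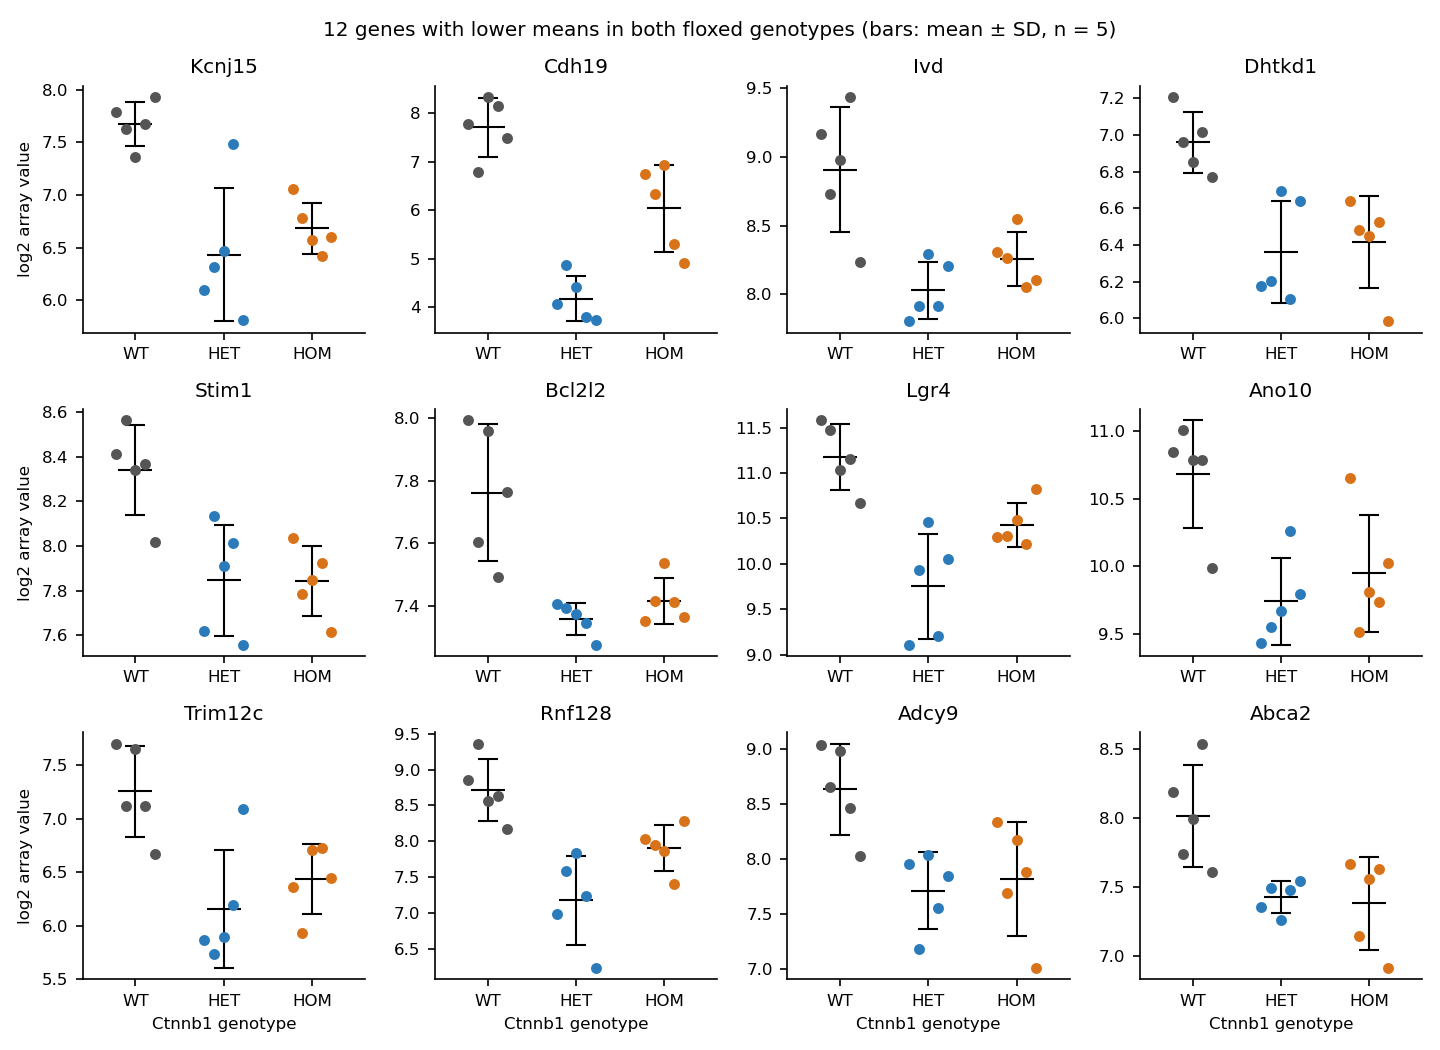
Log2 array values of the 12 genes with lower means in both floxed genotypes, by tumor and Ctnnb1 genotype, with bars for mean ± SD (n = 5). Dhtkd1 alone separates all 10 floxed from all 5 WT tumors, and Cdh19 shows HET (3.74 to 4.87) below HOM (4.91 to 6.93).

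The 12 named genes with the lowest p and a higher mean in both floxed genotypes were Zdhhc2, Prss34, Zfp275, Bcl10, Eif4a3, Fbxo27, Pak3, Stfa2l1, Retnlg, Olfr571, Bach1 and Birc3. Their log2 differences ran from 0.26 to 3.13, all with a limma adjusted p of 0.798, and again HET differed more than HOM in 10 of 12. Zdhhc2, an enzyme that attaches palmitate to proteins, ranged from 5.66 to 7.36 in WT and from 7.33 to 8.51 in floxed tumors, 8 of which lay above every WT tumor (log2 difference 1.19, 95% interval 0.59 to 1.79). Zfp275, a zinc finger gene, ranged from 5.86 to 6.66 in WT, 6.71 to 8.22 in HET and 6.55 to 6.96 in HOM (log2 difference 1.08, 95% interval 0.49 to 1.67).

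A pair of these genes acts in NF-kappaB signalling. Bcl10, an adaptor that carries the signal from antigen and other receptors, ranged from 9.80 to 10.21 in WT and from 10.10 to 10.62 in floxed tumors (log2 difference 0.41, 95% interval 0.17 to 0.64). Birc3, a ubiquitin ligase that is also a target of NF-kappaB, ranged from 7.64 to 8.08 in WT and from 7.97 to 8.89 in floxed tumors, 9 of which lay above every WT tumor (log2 difference 0.53, 95% interval 0.18 to 0.87).

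Bach1, a repressor of heme and oxidative stress genes, differed by 0.51, the kinase gene Pak3 by 0.73, and Eif4a3, an RNA helicase of the exon junction complex, by 0.30. Prss34, a mast cell and basophil protease (0.38), and the olfactory receptor gene Olfr571 (0.26) lay between 5.04 and 5.89 in all tumors, around the array medians. Like Fbxo27, both had every WT value below its array median and passed the filter through floxed tumors alone. For these 3 of the 12 a higher floxed mean was thus nearly fixed in advance. Olfr571 also belongs to a family of related genes, and whether its probes read other members was not analysed here. Stfa2l1 and Retnlg are neutrophil genes and are described with that list.

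**Figure D3:**
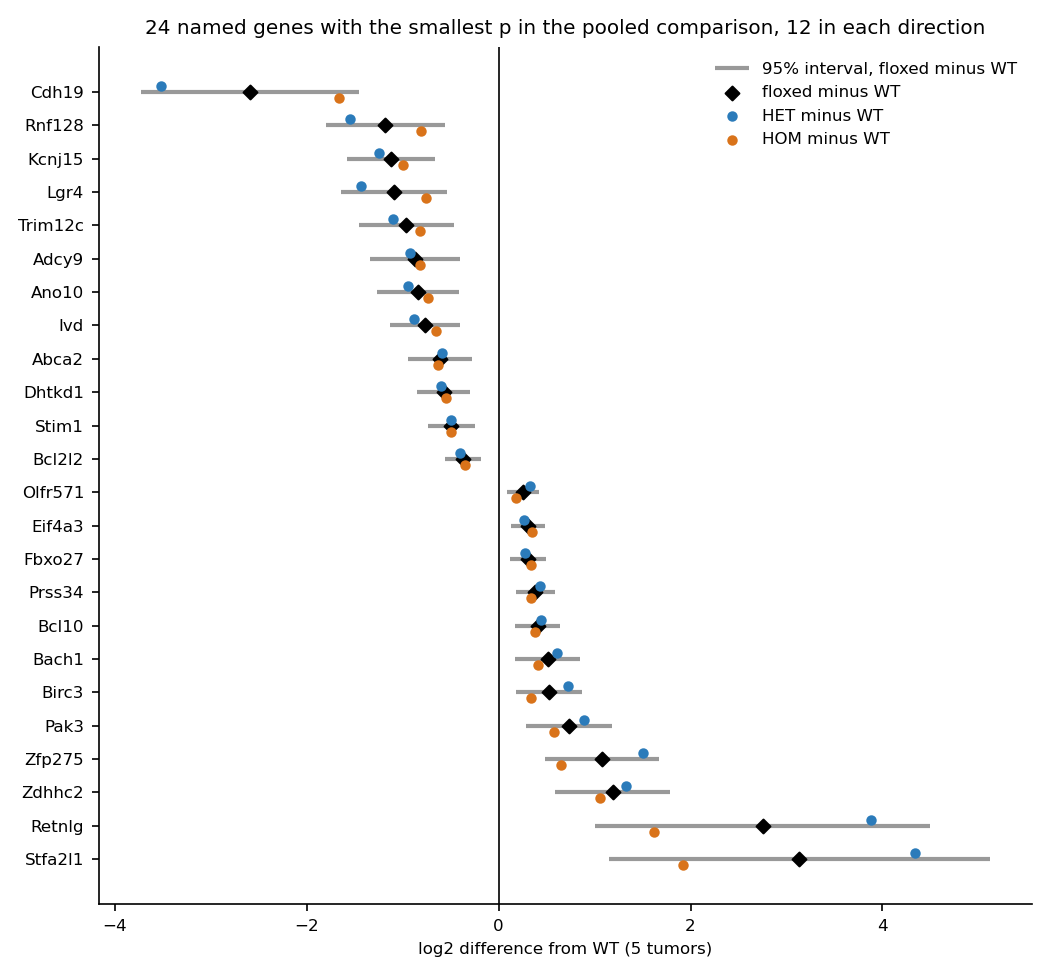
Log2 difference from WT of the 24 named genes with the smallest p, 12 in each direction: black diamonds and gray bars for floxed minus WT with its 95% interval, blue for HET minus WT and orange for HOM minus WT. Stfa2l1 (3.13), Retnlg (2.75) and Cdh19 (-2.59) have the largest pooled differences of the 24 and the widest gaps between HET and HOM.

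Wnt/beta-catenin target genes had mostly lower floxed means. Of 22 tested targets, 14 were lower and 3 higher in both floxed genotypes and 5 were split, with a median difference of -0.44 beside -0.02 for all genes. Over all tested genes 38% were lower in both. At an unadjusted p under 0.05, 3 targets were lower and 0 higher, beside 3.96% lower and 1.66% higher among all genes, and none was called. The list mean by tumor was 8.97 in WT 1 and 7.997 to 8.76 in the other WT tumors, and 7.85 to 8.47 in floxed tumors, so the groups overlapped. Without WT 1 the median difference was -0.10, and without WT 3 it was -0.61.

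The 3 targets with the smallest p are feedback inhibitors of the pathway. Znrf3, a ubiquitin ligase that removes Wnt receptors, was 10.13, 9.58, 8.35, 8.61 and 7.94 in WT 1 to WT 5 and ranged from 7.51 to 8.60 in floxed tumors (log2 difference -0.90, 95% interval -1.54 to -0.26, limma adjusted p = 0.798). Nkd1, which binds Dishevelled, was 10.72, 8.36, 6.07, 7.63 and 6.32 in WT 1 to WT 5 and ranged from 5.58 to 7.00 in floxed tumors (log2 difference -1.40). Rnf43, the partner of Znrf3, ranged from 8.77 to 10.89 in WT and from 6.88 to 9.57 in floxed tumors (log2 difference -1.06). WT 1 was highest for Znrf3, Nkd1 and Rnf43, and without it their differences were -0.60, -0.67 and -0.73.

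Axin2, the standard reporter of the pathway, was 10.78, 7.73, 6.48, 6.76 and 7.28 in WT 1 to WT 5 and ranged from 6.54 to 7.81 in floxed tumors with a median of 7.11. Only WT 1 lay above every floxed tumor. The log2 difference was -0.68 (95% interval -1.78 to 0.43, limma adjusted p = 0.812), and 0.07 without WT 1. Lef1, a TCF/LEF factor and itself a target, was 5.64 in WT 1 and 7.49 to 8.11 in the other WT tumors, and 10.08 in HOM 5 and 5.63 to 7.38 in the other floxed tumors (log2 difference -0.69, limma adjusted p = 0.824). The cell cycle targets Ccnd1 (11.84 ± 0.40 in WT and 11.99 ± 0.33 in floxed tumors) and Myc (10.33 ± 0.38 and 10.18 ± 0.35) differed by 0.15 and -0.15. Sox9 (0.97) and Fst (1.18) had higher floxed means.

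The rest of the pathway showed little shift. Of 36 tested Wnt ligands, receptors and regulators, 15 were higher and 11 lower in both floxed genotypes, and the median difference was 0.03. Lgr4 was the only member at an unadjusted p under 0.05. The co-receptor gene Lrp5 was 10.95 ± 0.31 in WT and 10.62 ± 0.29 in floxed tumors (-0.33), and the ligand gene Wnt10a was 6.98 ± 0.44 and 7.76 ± 0.86 (0.78). Of 23 tested genes of the destruction complex and TCF partners, 10 were lower and 2 higher in both, with a median of -0.10, and Apc differed by -0.16 (95% interval -0.40 to 0.08) and Gsk3b by -0.13 (95% interval -0.35 to 0.09).

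Junction genes were spread over both directions. Among 20 catenin and adherens junction genes, 9 were lower and 4 higher in both floxed genotypes, with a median of -0.10. Pkp4, a p120-related catenin, was 9.95 ± 0.28 in WT and 9.66 ± 0.22 in floxed tumors (-0.29, 95% interval -0.58 to -0.00173, limma adjusted p = 0.798), with all 10 floxed tumors below the WT mean and 3 of them below every WT tumor. Pkp4 and Ctnnb1 were the 2 members lower at an unadjusted p under 0.05, and 0 were higher, beside 3.96% lower and 1.66% higher among all genes. Nectin1, a nectin of the same junction, was 9.09 ± 0.46 and 9.61 ± 0.55 (0.51), with HET 2 highest at 11.004. Of 14 desmosome genes 9 were higher in both (median 0.27), and of 15 tight junction genes 8 were lower in both (median -0.37). The desmosome gene Dsc3, 1 of the 9, had every WT value below its array median. It passed the filter through floxed tumors alone, so its higher floxed mean was nearly fixed in advance. The tight junction median was -0.60 in HET and -0.03 in HOM, and HET 1 had the lowest list mean, 7.29 against 8.43 to 9.68 in the other floxed tumors. Without HET 1 the tight junction median was -0.02, and the desmosome median was 0.06 without HET 2 and 0.47 without HET 1. No gene of these lists was called.

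Among ErbB receptors and ligands, 9 of 11 tested members were higher and 2 lower in both floxed genotypes (median 0.36), with 0 called and 0 at an unadjusted p under 0.05. The ligand genes Ereg (6.49 ± 0.42 in WT and 7.96 ± 1.69 in floxed tumors) and Hbegf (9.30 ± 1.46 and 10.28 ± 0.53) differed by 1.47 and 0.98. Erbb3, the usual partner of Erbb2, was 10.55 ± 0.46 and 9.94 ± 1.24 (-0.62). The chromosomal neighbours of Erbb2 lay on both sides of WT. Of 24 members, Erbb2 included, 12 were lower (50%) and 5 higher in both and 7 were split, beside 38% lower and 30.7% higher among all genes, and 0 had an unadjusted p under 0.05 in either direction. Csf3 (0.76), Rapgefl1 (0.21), Med24 (0.12) and Tcap (0.06) had higher means in both floxed genotypes, as Erbb2 had, while Pgap3 and Stard3, which lie beside it, differed by -1.78 and -1.44 with wide intervals (-3.86 to 0.30 and -3.38 to 0.49).

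Interferon response genes had lower floxed means. Of 17 tested members 16 were lower and 1, Ifit3, higher in both floxed genotypes, and the median difference was -0.87 (-0.87 in HET and -0.85 in HOM). At an unadjusted p under 0.05, 7 were lower, beside 3.96% of all genes, and 0 higher, and none was called. The members vary together between tumors, so these counts are not independent of each other. Bst2 (tetherin, which holds budding virus at the cell surface) was 8.53, 9.11, 10.16, 8.92 and 7.19 in WT 1 to WT 5. It was 6.72, 6.001, 6.82, 6.66 and 9.19 in HET 1 to HET 5, and 6.58, 8.24, 6.76, 8.32 and 7.79 in HOM 1 to HOM 5. Floxed tumors were divided into low and high ones, with 6 of 10 below every WT tumor and HET 5 above 4 WT tumors (log2 difference -1.47, 95% interval -2.59 to -0.35, limma adjusted p = 0.798).

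The members differed in which floxed tumors were high. Isg15, a ubiquitin-like protein, was 6.59, 7.10, 8.11, 7.56 and 5.79 in WT 1 to WT 5, 5.12 to 5.54 in HET 1 to HET 4 and 7.64 in HET 5, and 5.16 to 6.90 in HOM (log2 difference -1.05). The transcription factor gene Irf7 (-1.23), Usp18, which removes Isg15 from proteins (-1.49), and Xaf1 (-1.03) had lower floxed means. Rsad2 (viperin, an antiviral enzyme) was highest among floxed tumors in HOM 5, at 9.40, and so was Ifit3, at 7.49, above every WT tumor. The chemokine gene Cxcl10 was highest in HOM 5 (9.396) and HOM 4 (9.30), and Oasl1, of the oligoadenylate synthetase family, in HET 5 (9.64) and HET 2 (9.56). Averaged over the list, WT 3 and WT 4 had 10.18 and 9.39 and WT 5 had 7.83, while HET 5 had 9.48 and the other floxed tumors between 6.84 and 8.79. The median difference was -0.51 without WT 3, -1.16 without WT 5 and -1.09 without HET 5. Markers of T and NK cells, which release interferon, differed by a median of -0.06, with 3 of 10 members higher and 4 lower in both, and the median was -0.24 without HET 1 and 0.13 without WT 3. Their list mean was highest in WT 3 (7.79) among WT tumors and in HET 1 (8.33) among floxed tumors, and their part in the interferon values was not tested.

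Promoter windows are shown for Bst2 and Isg15 because both belong to this list and hold a motif of the interferon-stimulated response element. Windows of 250 bases before to 50 after the RefSeq start (GRCm38.p6) were searched on both strands for GAAANNGAAA, a core of that element. Hits may overlap, and capitals mark them. Of 14 listed genes with a window 9 held the motif (64.3%), beside 400 of 11130 tested genes (3.59%). A match is a description of the letters only. The Bst2 window lies at chr8:71537423-71537722 on the minus strand, with its first hit at position -130 from the start, and the Isg15 window at chr4:156200769-156201068 on the minus strand.
Bst2: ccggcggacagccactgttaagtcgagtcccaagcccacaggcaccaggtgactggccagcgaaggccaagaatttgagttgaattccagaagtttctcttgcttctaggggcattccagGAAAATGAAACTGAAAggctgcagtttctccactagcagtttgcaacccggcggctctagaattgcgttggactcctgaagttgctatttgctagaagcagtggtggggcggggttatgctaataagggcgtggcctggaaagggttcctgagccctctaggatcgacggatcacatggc
Isg15: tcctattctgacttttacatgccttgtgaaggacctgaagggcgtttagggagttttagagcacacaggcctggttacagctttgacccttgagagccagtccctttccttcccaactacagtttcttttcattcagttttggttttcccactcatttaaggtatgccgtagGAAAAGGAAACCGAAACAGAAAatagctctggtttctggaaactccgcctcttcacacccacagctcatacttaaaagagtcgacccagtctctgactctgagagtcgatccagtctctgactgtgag

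The same search with the TCF/LEF core (CTTTG followed by A or T at each of the next 2 positions) gave no such contrast for the genes with the smallest p. It was found in 1 of 11 lower and 1 of 11 higher genes with a window and in 3 of 12 Wnt targets, beside 1556 of 11130 tested genes (14%). The single lower gene was Kcnj15, whose window is shown for that reason. It lies at chr16:95257308-95257607 on the plus strand, with the hit, which reads on the opposite strand and is in capitals, at position -247.
Kcnj15: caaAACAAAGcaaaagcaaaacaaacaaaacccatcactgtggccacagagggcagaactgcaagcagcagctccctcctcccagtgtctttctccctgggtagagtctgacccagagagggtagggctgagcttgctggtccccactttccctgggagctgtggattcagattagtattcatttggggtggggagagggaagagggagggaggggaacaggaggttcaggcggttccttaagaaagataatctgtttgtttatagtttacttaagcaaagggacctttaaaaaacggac

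MHC class I antigen processing genes ran the same way, with 12 of 12 tested members lower in both floxed genotypes and a median of -0.44. Among all tested genes 38% were lower in both. At an unadjusted p under 0.05, 1 member was lower, beside 3.96% of all genes, and 0 higher, and none was called. These members also vary together between tumors, so the counts are not independent of each other. H2-T23, a non-classical MHC class I gene of a family of near-identical members, ranged from 8.17 to 9.91 in WT and from 6.89 to 8.91 in floxed tumors (log2 difference -0.99, 95% interval -1.72 to -0.25, limma adjusted p = 0.798). The peptide transporter gene Tap1 (-0.70) and the immunoproteasome gene Psmb8 (-0.63) had intervals that included 0, and B2m, the shared light chain, differed by -0.09 (95% interval -0.31 to 0.14). HET 5 and HOM 4 had the highest floxed list means, 10.16 and 10.22. The median difference was -0.20 without WT 3.

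Genes of branched-chain amino acid and lysine breakdown had lower floxed means in 18 of 20 tested members, with 1 higher and 1 split, and a median of -0.33. Among all tested genes 38% were lower in both floxed genotypes. This list was drawn up when Ivd and Dhtkd1 were already known to be low, so its count is not independent of them. At an unadjusted p under 0.05, 4 were lower, beside 3.96% of all genes, and 0 higher, and none was called. The 4 were Ivd, Dhtkd1, Pccb, a subunit of propionyl-CoA carboxylase (9.32 ± 0.50 in WT and 8.79 ± 0.35 in floxed tumors), and Mccc1, a subunit of the carboxylase of leucine breakdown (7.70 ± 0.26 and 7.26 ± 0.41). Bcat1, the cytosolic aminotransferase of the first step, was the member with a higher mean (6.33 ± 0.34 and 6.95 ± 1.08). The list mean was 9.32 in WT 1 and 8.45 to 8.74 in the other WT tumors, and 8.01 to 8.73 in floxed tumors. Without WT 1 the median was -0.18.

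Oxidative phosphorylation genes had a smaller difference of the same sign, with 19 of 26 lower and 2 higher in both floxed genotypes, a median of -0.15 (-0.06 without WT 1) and 0 at an unadjusted p under 0.05. Cell cycle, Hedgehog, Notch, TGF-beta and glycolysis lists had medians between -0.03 and 0.05, and 16 of 25 cell cycle genes were split between HET and HOM.

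Neutrophil genes had the highest median difference of the 36 lists, 1.44 (2.07 in HET and 0.81 in HOM). Of 15 tested members 14 were higher in both floxed genotypes and 1, G0s2, lower. At an unadjusted p under 0.05, 10 were higher, beside 1.66% of all genes, and 0 lower, and none was called. Neutrophil genes vary together between tumors, so these counts are not independent of each other. Stfa2l1, a stefin of neutrophils, was 3.58, 5.32, 4.78, 5.62 and 6.59 in WT 1 to WT 5. It was 10.59, 11.43, 8.03, 9.50 and 8.05 in HET 1 to HET 5, and 6.28, 8.70, 5.41, 5.51 and 9.61 in HOM 1 to HOM 5. The WT mean of Stfa2l1 lay below every WT array median, and 3 WT tumors lay below their own, so signal over background was not known there and the size of the difference is uncertain. Every HET tumor lay above every WT tumor, and so did HOM 2 and HOM 5 (log2 difference 3.13, 95% interval 1.15 to 5.12, limma adjusted p = 0.798). Stefin genes are near-identical copies, so Stfa2l1 and Stfa1 may share signal.

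Retnlg, a resistin-like protein of neutrophils, showed the same tumors high, with 4.19 to 6.55 in WT, 7.73 to 11.03 in HET and 5.70 to 8.80 in HOM (log2 difference 2.75). Its WT mean, 5.38, was also below the WT array medians, which carries the same uncertainty. The chemokine receptor gene Cxcr2 (7.24 ± 0.92 in WT and 8.95 ± 1.52 in floxed tumors), the gelatinase gene Mmp9 (8.55 ± 1.25 and 10.39 ± 1.47) and Csf3r, the receptor for the growth factor of neutrophils (7.94 ± 0.84 and 9.23 ± 1.25), differed by 1.71, 1.84 and 1.30. S100a8, an abundant neutrophil protein, did not reach an unadjusted p under 0.05 (8.90 ± 0.90 and 9.97 ± 1.63). The list mean ranged from 6.18 to 7.40 in WT tumors, from 7.37 to 10.33 in HET tumors and from 6.84 to 8.77 in HOM tumors. HET 1 and HET 2 were highest, at 10.22 and 10.33, and leaving out any single tumor kept the median difference between 1.24 and 1.73.

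Other cell types differed less. Of 10 pan-leukocyte markers 5 were higher and 1 lower in both floxed genotypes (median 0.24), and their list mean lay between 7.86 and 8.81 in WT and between 7.75 and 9.57 in floxed tumors. Of 15 macrophage markers 12 were higher in both (median 0.25), led by the integrin gene Itgam (0.93), which neutrophils also express. Fibroblast (13 of 14 higher in both, median 0.32), endothelial (10 of 12, 0.26) and mesenchymal genes (11 of 13, 0.32) had higher floxed means, with 0 at an unadjusted p under 0.05 in each. Without WT 1 the fibroblast median turned to -0.08 and the macrophage median to -0.05, and the endothelial and pan-leukocyte medians were both 0.10. Without HET 4 the fibroblast median was 0.09 and the endothelial median 0.10. The mesenchymal median was 0.19 without HOM 5 and 0.52 without WT 4, and its mean difference of 0.45 was 0.18 without WT 1. HET 4 had the highest fibroblast mean, 11.45, and WT 1, at 7.23, lay below the other WT tumors, 9.19 to 9.44. The part of these cells in the gene differences above was not tested gene by gene. With leukocyte and fibroblast marker means as covariates, 0 genes were called and the smallest adjusted p was 0.189 (limma).

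Squamous and cornified layer genes had higher means in 12 of 14 members (median 0.73), but the tumors of each genotype disagreed, and the median was 0.38 without WT 3 and 1.11 without HET 5. The list mean was 10.39, 9.94 and 8.98 in HET 2, HET 3 and HET 4 and 6.22 and 6.19 in HET 1 and HET 5. In HOM 2 and HOM 3 it was 10.49 and 9.67, and in the other HOM tumors 6.77 to 7.65, while WT tumors lay between 6.84 and 8.78. Krt16, a keratin of stressed epidermis, was 7.40 ± 1.95 in WT and 8.87 ± 2.18 in floxed tumors (1.47, limma adjusted p = 0.806). Krtdap, a gene of differentiating keratinocytes, lay above 10 in 4 floxed tumors (HET 2, HET 3, HOM 2 and HOM 3), at 8.63 in WT 4, and at most at 6.13 in the others. Lor, the cornified envelope protein loricrin, differed by 0.14 around the array medians.

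Adipocyte genes (8 of 12 higher in both, median 0.63) were highest in HOM 4, with a list mean of 8.96, HET 4 (8.17) and HET 3 (8.07), and lay between 6.97 and 7.27 in WT. Lep, 1 of the 8, had every WT value below its array median. It passed the filter through floxed tumors alone, so its higher floxed mean was nearly fixed in advance. Retn, the hormone resistin, was 6.05 ± 0.23 in WT and 7.02 ± 0.98 in floxed tumors (0.97, limma adjusted p = 0.798), Cidec, a lipid droplet protein, differed by 0.98, and the adipocyte regulator Pparg by 0.69. The skeletal muscle median of 0.50 came with HET 3, whose values were 12.95 for the actin gene Acta1, 10.01 for the troponin gene Tnni2 and 10.98 for parvalbumin (Pvalb), against at most 6.31 for Tnni2 and 6.03 for Pvalb in the other tumors. Acta1 was also high in HET 4, at 10.61, and at most 7.78 in the rest. Without HET 3 the muscle median was 0.10. Only 2 of 8 muscle genes were higher in both floxed genotypes.

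**Figure D4:**
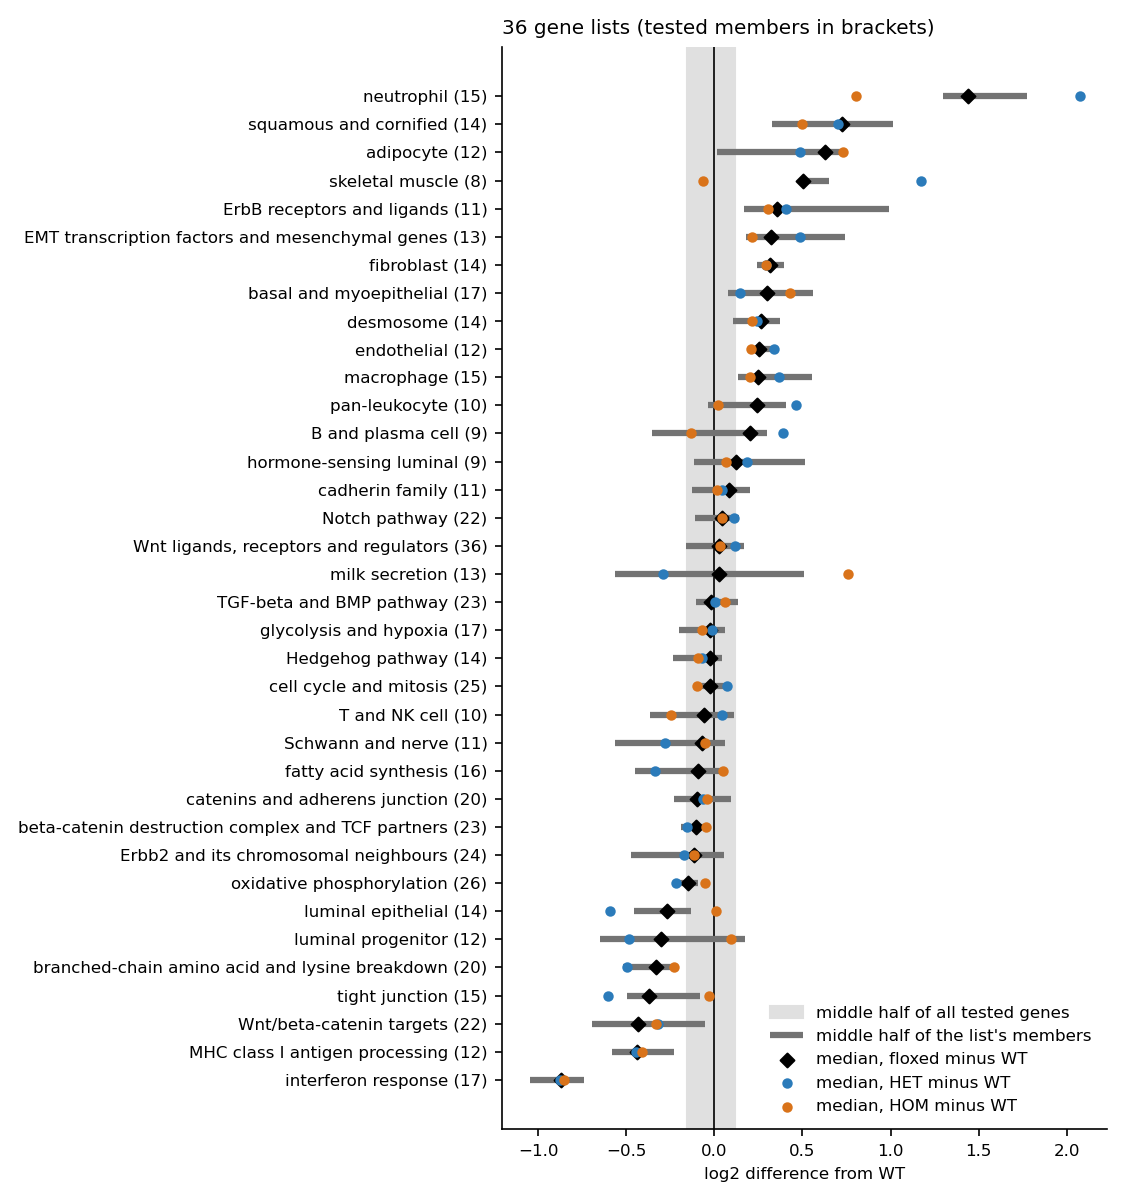
Median log2 difference from WT of the tested members of 36 gene lists: diamonds for floxed minus WT with gray bars from the lower to the upper quartile of the members, blue for HET and orange for HOM, and a gray band for the same quartiles of all tested genes. Neutrophil genes (1.44) and interferon response genes (-0.87) lie at the ends.

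**Figure D5:**
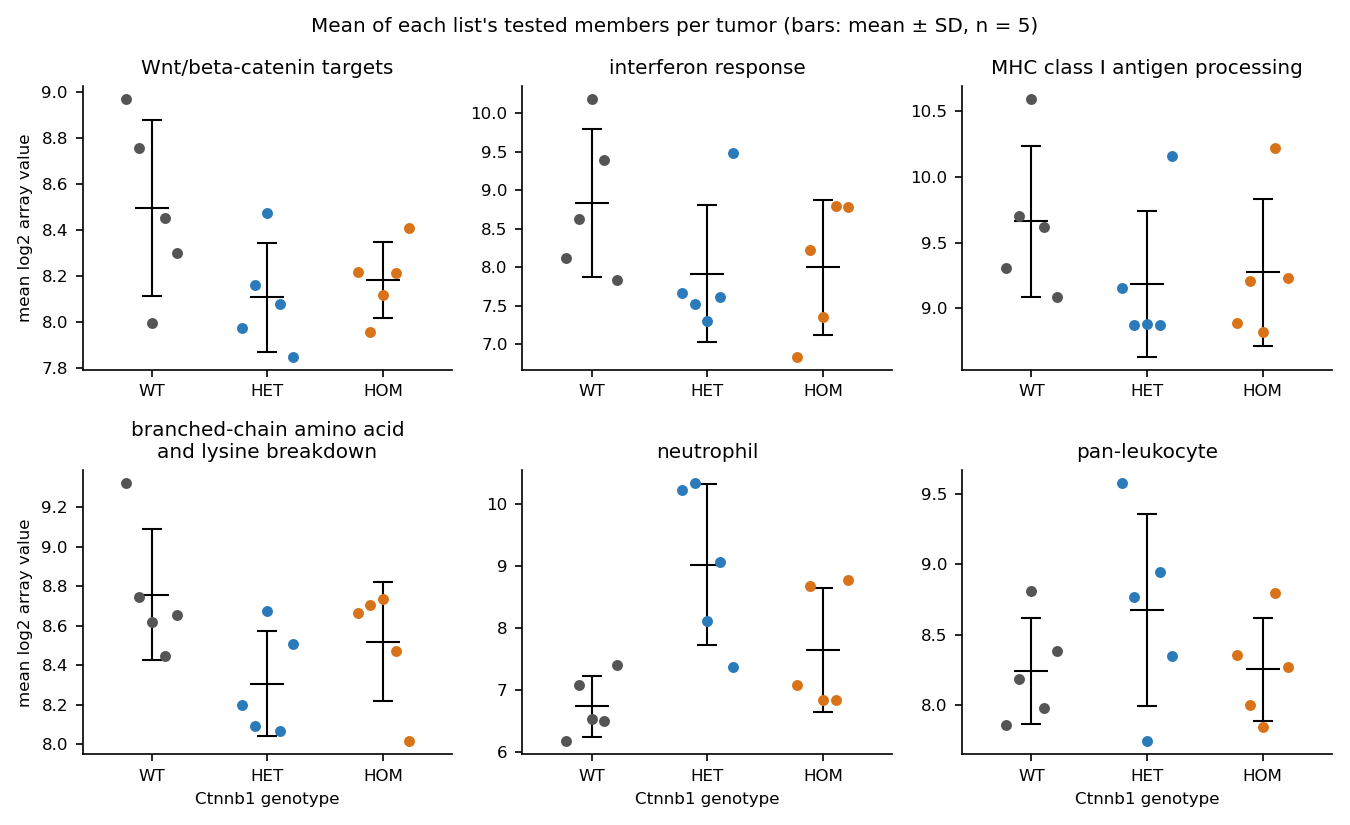
Mean log2 array value of the tested members of 6 lists in each tumor by Ctnnb1 genotype, with bars for mean ± SD (n = 5). Neutrophil means reach 7.40 in WT and 10.33 in HET, with HET 5 (7.37), HOM 1, HOM 3 and HOM 4 within the WT range. Interferon and MHC class I means also overlap between the genotypes.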

How the data were processed

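The authors deposited one array value per transcript cluster and tumor. The deposited values were read as log2 intensities from their range, and Affymetrix Expression Console and Transcriptome Analysis Console are named per the submitters' processing notes. No source used here gives their settings, background correction or normalization, and the labels' protocols give 100 ng of RNA per array. The number of arrays limits precision.

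Of 41345 clusters, 23521 had exactly 1 gene symbol in the platform annotation, 1814 had several, and 16010 had none here. By Entrez ID 23328 were found in the RefSeq gene table of GRCm38.p6. The cluster with the highest mean was kept for each of 22180 genes, and the 14243 genes above their array's median on at least 5 arrays were tested. Floxed and WT tumors were compared two-sided with the moderated linear model of limma (version 3.58.1, R version 4.3.3), which left 13 residual degrees of freedom, and p-values were adjusted by Benjamini-Hochberg over all tested genes at 0.05. All adjusted p-values are from limma unless another test is named. HET and HOM were also fitted as separate genotypes. Ctnnb1, Jup and Erbb2 were compared by exact permutation, whose smallest possible p is 0.000333.

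Genes named are Ctnnb1, Jup, Cdh1, Erbb2, Axin2 and Lef1, the 12 genes per direction with the smallest p, unnamed gene models left out, and 3 members of each of the Wnt, catenin and 6 most shifted lists. Further members were named after their values were seen. Members, lists and rules were chosen with earlier results of these data known. Lists carry counts and medians and no set test. On simulated data of 14243 genes, 11 of 174 calls were false. Noise was independent between genes there. Replicates were numbered in accession order, which pairs no tumors. Further settings changed the filter, normalization, cluster choice, variance model, array weights, design, covariates, threshold and tumors left out. Leaving out each tumor for every list was added after seeing the data.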

Additional observations from a re-analysis of the deposited data

Results flagged for a closer look

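Among 55 named genes, 220 groups of tumors were searched for a single tumor far from the rest of its group by Dixon's criterion. There were 21 such values in 16 genes, and chance alone gives about 1 such value in every 20 groups. The values are given without explanation.

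HET 3 stood apart in muscle genes, with Tnni2 at 10.01 (the other floxed tumors 5.603 to 6.31) and Pvalb at 10.98 (5.44 to 6.03), both among HET and among all floxed tumors. HET 5 stood above the other HET tumors in interferon and antigen processing genes: Bst2 at 9.19 (others 6.001 to 6.82), Isg15 at 7.64 (5.12 to 5.54), Tap1 at 10.49 (8.80 to 9.12) and Psmb8 at 10.17 (8.55 to 8.99). HET 1 was low in Cdh1, at 8.38, among HET and among all floxed tumors (others 11.23 to 12.16). HET 2 was high in Nectin1, at 11.004 (9.04 to 9.81 in the other floxed tumors).

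HOM 5 had the low Jup value of 11.17 (other HOM tumors 12.79 to 12.98), the high Lef1 value of 10.08 among HOM and all floxed tumors (5.63 to 7.38) and the high Fbxo27 value of 6.11 (5.49 to 5.79). HOM 2 was high in Zdhhc2 at 8.06 (7.39 to 7.54) and in Pak3 at 6.48 (6.02 to 6.13), and HOM 3 in Bcl2l2 at 7.54 (7.28 to 7.41 in the other floxed tumors). Among WT tumors, WT 1 was low in Lef1 at 5.64 (7.49 to 8.11), WT 5 low in Ano10 at 9.99 (10.78 to 11.003), and WT 4 high in Krtdap at 8.63 (5.41 to 6.13).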

How the results depend on the processing

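The count of 0 called genes held under 30 of 31 other settings. The exception was the fit of 3 genotypes, which called 1 gene (Cdh19), also on the same side in HET and HOM. Taken singly against WT in that fit, Cdh19 passed in HET and not in HOM. The smallest adjusted p under the other settings was 0.0869, without HET 4. Of 1506 values of named genes, 1503 kept their direction and their side of the threshold, 1 passed (Cdh19) and 2 reversed: Acta1 at -0.022 with the number of floxed alleles as a linear term, and Axin2, which ranged from -1.01 without WT 3 to 0.0693 without WT 1. None of the 651 values of the 24 genes with the smallest p reversed. Those genes were chosen by p in the same tumors, so this was nearly fixed in advance. With no gene called in the main fit, a gene kept its side of the threshold whenever it stayed uncalled. The number of separated genes, 4, was 7 with no filter, 0 with the filter at the 75th percentile, where fewer genes were tested, 5 with renewed quantile normalization (2 of them among the 4), 8 with median centring, 11 without HET 1 and HET 3, 104 without WT 5 and HOM 5, and 7 over all transcript clusters, a setting chosen after seeing the data. With 1 tumor left out it ranged from 5 to 75, where chance also separates more genes. The Ctnnb1 difference was -0.38 with median centring (exact permutation p = 0.038) and -0.56 without WT 5 and HOM 5 (p = 0.0014), and ranged from -0.50 to -0.28 with 1 tumor left out. The cause was not tested. List medians under the number of floxed alleles are differences per allele: 0.40 for neutrophil and -0.43 for interferon genes. With the filter at the 75th percentile the adipocyte median was -0.05, the Wnt ligand and receptor median -0.13, and no muscle gene remained. Without WT 4 the catenin median was 0.02. Without scanner files, signal over background was not analysed here. No paired analysis was possible because replicate numbers follow accession order.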
